A study of Zea mays with 36 samples.

Results

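The 4 genes described here carry out steps of tocochromanol synthesis, the pathway that makes vitamin E, and were read by ID from a table of 63340 features: hppd1 (Zm00001d015356), hggt1 (Zm00001d046558), vte1 (Zm00001d015985) and vte4 (Zm00001d017746). They were chosen by identity, with earlier results of these data known, and all 4 IDs were present. The symbols came with that choice. The deposited table holds IDs alone, and 0 of its 44146 annotated IDs matched the reference table of gene names used here, so the symbols were not checked against an annotation. The study measured embryo transcriptomes of 2 maize (Zea mays) lines, labelled by high and by low oil content, from 15 to 40 days after pollination, every 5 days. Each of the 12 groups of line and day had 3 libraries, 36 in all. The seeds of every group had been soaked in water overnight before their embryos were dissected, and the RNA was enriched for polyadenylated transcripts. A single line stood for each oil level, so oil content and other genetic differences between the lines cannot be told apart. No label says that replicates came from separate plants, so each p-value is set against a spread that may be technical.

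Tocochromanols are fat-soluble antioxidants made in plastids from a ring donated by homogentisate and an isoprenoid tail. HPPD (p-hydroxyphenylpyruvate dioxygenase) makes homogentisate, which also feeds plastoquinone synthesis. HGGT (homogentisate geranylgeranyl transferase) joins it to a geranylgeranyl tail, the committed step towards tocotrienols, and is known in cereals for its activity in the endosperm. VTE1, tocopherol cyclase, closes the chromanol ring, and VTE4, gamma-tocopherol methyltransferase, converts gamma-tocopherol into alpha-tocopherol, the form with the highest vitamin E activity. Tocopherols are the main tocochromanols of the maize embryo, whereas tocotrienols are typical of the endosperm.

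The levels are RPKM values, reads scaled by the length of the feature and the total of the library, so that levels of different genes may be set side by side. They resolved to whole reads, with library totals between 41247297 and 66760746 reads. Tests were limma fits on log2(RPKM + 1) over 28048 features, those reaching 1 RPKM in 3 or more libraries, and a change was taken to pass at a Benjamini-Hochberg adjusted p below 0.05. Of the 4 genes, 3 met that filter, each with reads in all 36 libraries, and hggt1 did not. The libraries least like their own group were replicate 1 of each line at 40 days (mean correlation 0.934 for high-oil, 0.941 for low-oil) and replicate 2 of high-oil embryos at 35 days (0.938), and each had the lowest vte4 level of its group. Markers of endosperm and other tissues could not be looked up, since no source used here pairs these IDs with names, so the tissue label was not checked. In bulk tissue, fewer cells of a type and less RNA per cell cannot be told apart.

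Between 15 and 40 days, vte4 fell 8.85-fold in high-oil and 10.5-fold in low-oil embryos (17.8-fold without low-oil 40-day replicate 2). Over the same time vte1 fell by less and hppd1 fell in high-oil embryos, while hggt1 had 0 reads in 34 of the 36 libraries. In the high-oil line all 3 genes tested passed with a lower level at 40 days, where 37.4% of all features tested were called lower and 54.8% were called in either direction. In the low-oil line 2 of the 3 passed, both lower, beside 37.2% of features called lower and 55.4% called in either direction. With a minimum of 1 log2 unit, 2 of the 3 genes passed in each line, beside 31.5% of features in high-oil and 32.3% in low-oil embryos. A fall is thus a common course on this scale. The median feature moved by -0.24 log2 units in each line, and by 0.02 with median-of-ratios scaling, which sets each library by its median feature.

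**Figure D1:**
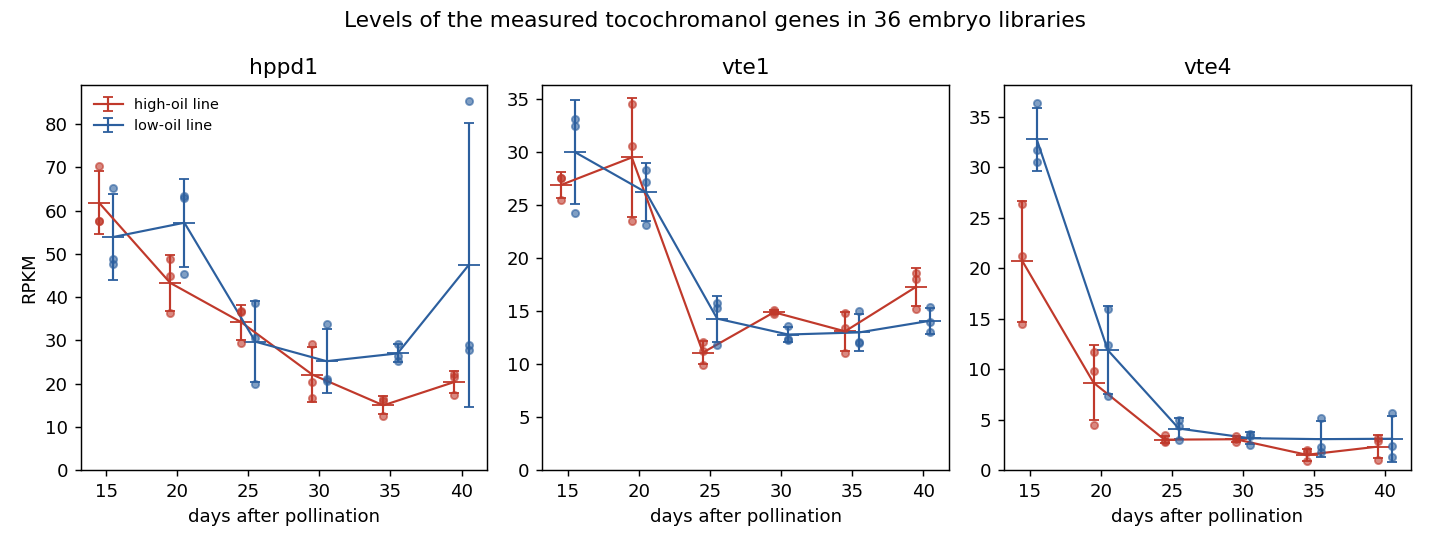
Levels of hppd1, vte1 and vte4 in RPKM against days after pollination, with points for the 36 libraries and bars for the mean and SD of 3 libraries per group (red, high-oil line; blue, low-oil line). vte4 dropped between 15 and 25 days, vte1 between 20 and 25 days, and a single low-oil 40-day library at 85.4 RPKM stands above the other hppd1 values of its group.

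The first enzyme of the series, hppd1, had the highest mean level of the 4 genes in every group. Its libraries ranked between the 84.7th and 97.6th percentile of all annotated IDs, including those with 0 reads. In the high-oil line it had 70.2, 57.7 and 57.5 RPKM at 15 days, then 36.3, 48.8 and 44.8 at 20 days, then 29.5, 36.7 and 36.5 at 25 days. It went on to 20.4, 16.7 and 29.2 RPKM at 30 days, then 12.6, 16.5 and 15.9 at 35 days, then 17.5, 22.3 and 21.5 at 40 days. All late libraries of this line lay below all 15-day libraries, and the mean went from 61.8 ± 7.27 to 20.4 ± 2.54 RPKM (SD, n = 3), a ratio of 3.02. On the log2 scale hppd1 fell by 1.55 (SE 0.29, adjusted p 4e-05), or -1.31 relative to the median feature.

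In high-oil embryos the mean level of hppd1 fell at each stage to 35 days and was higher again at 40 days. None of the 5 intervals between neighbouring stages passed the test alone. The log2 values were -0.51 between 15 and 20 days (adjusted p 0.24) and -0.33 between 20 and 25 days (adjusted p 0.47). They were -0.64 between 25 and 30 days (adjusted p 0.37) and -0.50 between 30 and 35 days (adjusted p 0.40). Between 35 and 40 days the value was 0.42 (adjusted p 0.57). The lowest mean was at 35 days, 15 ± 2.1 RPKM, where all 3 libraries were below those at 40 days.

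In the low-oil line hppd1 had 48.7, 47.7 and 65.3 RPKM at 15 days and 62.9, 63.3 and 45.4 at 20 days, groups that overlapped. It had 30.5, 38.7 and 20 RPKM at 25 days, then 21.1, 33.8 and 20.7 at 30 days, then 25.2, 29.2 and 26.5 at 35 days. The level thus dropped between 20 and 25 days, where the libraries did not overlap and the log2 change was -0.95 (SE 0.29, adjusted p 0.022), beside 15.2% of features called in that interval. That call was lost when low-oil 20-day replicate 1 was left out (log2 -0.88, adjusted p 0.084), likewise replicate 2 (log2 -0.88, adjusted p 0.084) and 25-day replicate 3 (log2 -0.70, adjusted p 0.15), and with median-of-ratios scaling (adjusted p 0.061) or the compared groups alone (adjusted p 0.093).

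At 40 days the 3 low-oil libraries gave 85.4, 29 and 27.7 RPKM of hppd1. The highest, replicate 1, held 7222 reads of the gene against 3176 and 2864 in the others, and it is the low-oil library with the lowest correlation to its group. Whether the value belongs to this sample or to the stage was not tested. With this library the change from 15 to 40 days was -0.37 log2 units (SE 0.29, adjusted p 0.29) and did not pass, and with median-of-ratios scaling it was 0.04. Without it the gene fell by 0.89 (adjusted p 0.0028).

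The endosperm-type enzyme gene hggt1 was close to absent from these embryos. It had 5 reads in all 36 libraries together, counted at the shortest length that gave whole reads. With values in 2 libraries alone, whole multiples of that length and of these reads would fit the RPKM equally. High-oil 15-day replicate 1 had 2 of them (0.0471 RPKM) and replicate 2 of that group had 3 (0.0615 RPKM). The other 34 libraries had 0 reads. For a feature of 940 bases, a limit of 3 reads corresponds to between 0.0478 and 0.0774 RPKM, depending on the depth of the library. At this shortest fitting length both values stand at or under the limit of their library. At a longer one they could stand above it. The limit covers counting error only, since PCR copies are not independent molecules. No fold or test is given for hggt1, because it did not meet the filter of the test and 34 of the 36 libraries had 0 reads. In contrast, vte4, the lowest of the other 3 genes, had at least 62 reads in every library.

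The cyclase gene vte1 had overlapping levels at 15 and 20 days and dropped between 20 and 25 days. No later change between neighbouring stages passed the test, and the change from 25 to 40 days was not tested. In the high-oil line vte1 had 27.6, 25.5 and 27.6 RPKM at 15 days and 23.5, 34.5 and 30.6 at 20 days. At 25 days it had 9.89, 11.2 and 12.1 RPKM, below every earlier library of the line. In the low-oil line the values were 32.5, 24.3 and 33.1 RPKM at 15 days, then 23.1, 27.2 and 28.3 at 20 days. They were 15.8, 15.3 and 11.8 at 25 days, and the 25-day group again did not overlap either earlier group. How many of all features were apart between these stages was not counted.

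Between 20 and 25 days vte1 fell by 1.32 log2 units in high-oil embryos (SE 0.14, adjusted p 6.2e-07), which placed it at the 1.9th percentile of all features in that interval, where 20.6% were called. In the low-oil line it fell by 0.84 in the same interval (SE 0.14, adjusted p 0.00017), at the 6.83rd percentile. Both calls held in the alternative fits and without each of the libraries compared, except that the low-oil change is under a minimum of 1 log2 unit. Neither line showed a change between 15 and 20 days that passed the test, with log2 values of 0.11 (adjusted p 0.67) in high-oil and -0.18 (adjusted p 0.46) in low-oil embryos.

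After 25 days fewer features were called between neighbouring stages than in the earlier intervals of either line. The share called was 0.481%, 2.87% and 1.94% over the successive intervals of the high-oil line and 6.69%, 2.76% and 0.0606% over those of the low-oil line, and none of hppd1, vte1 and vte4 was among them. Over this time vte1 stayed between 11.1 and 18.6 RPKM in all high-oil libraries and between 12 and 15.4 in all low-oil libraries. The high-oil 40-day libraries, with 18, 18.6 and 15.2 RPKM, nevertheless lay above the 25-day libraries of that line, while the low-oil 40-day libraries, with 15.4, 13 and 14 RPKM, overlapped the low-oil 25-day ones. From 15 to 40 days the log2 change of vte1 was -0.62 for the high-oil line (SE 0.14, adjusted p 0.00065) and -1.02 for the low-oil line (SE 0.14, adjusted p 6.9e-07). Relative to the median feature these changes were -0.38 and -0.79. With median-of-ratios scaling the high-oil change was -0.22 (adjusted p 0.23) and no longer passed, and the low-oil change was -0.62 and did.

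The methyltransferase gene vte4 fell most. Its 15-day levels were 14.5, 26.4 and 21.2 RPKM in high-oil embryos and 36.4, 31.7 and 30.5 in low-oil embryos. At 20 days they were 4.48, 9.85 and 11.7 in high-oil embryos and 16, 12.4 and 7.36 in low-oil embryos. By 25 days the high-oil libraries had 2.76, 3.45 and 2.88 RPKM and the low-oil libraries 4.99, 3.02 and 4.37. Within each line, the 15-day, 20-day and 25-day groups did not overlap. The share of all features apart between these stages was not counted.

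Later vte4 stayed low. The high-oil values were 2.78, 3.08 and 3.35 RPKM at 30 days, then 1.97, 0.871 and 1.76 at 35 days, then 1.01, 3.16 and 2.85 at 40 days. The low-oil values were 2.49, 3.39 and 3.63 RPKM at 30 days, then 2.26, 5.13 and 1.85 at 35 days, then 1.32, 5.65 and 2.38 at 40 days. At 35 and 40 days the replicates of a group spread widely relative to their mean, most widely at 40 days in low-oil embryos.

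From 15 to 40 days the mean vte4 level went from 20.7 ± 6 to 2.34 ± 1.16 RPKM in high-oil embryos (SD, n = 3), a ratio of 8.85, and from 32.8 ± 3.11 to 3.12 ± 2.26 RPKM in low-oil embryos, a ratio of 10.5. Without low-oil 40-day replicate 2 the 40-day mean was 1.85 RPKM and the ratio 17.8. The log2 changes were -2.73 (SE 0.35, adjusted p 1.5e-07) and -3.18 (SE 0.35, adjusted p 9.9e-09), or -2.49 and -2.94 relative to the median feature. They placed vte4 at the 3.32nd and the 2.09th percentile of all features. By 20 days vte4 had made 44.5% of its log2 change in high-oil embryos and 45.5% in low-oil embryos, and by 25 days 87.6% and 86.2%. Both calls held in each alternative fit and without each of the 6 libraries compared.

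The intervals before 25 days each passed for vte4. Between 15 and 20 days the log2 change was -1.22 for the high-oil line (SE 0.35, adjusted p 0.015), beside 18.2% of features called, and -1.45 for the low-oil line (SE 0.35, adjusted p 0.006), beside 14.4%. Between 20 and 25 days it was -1.18 (adjusted p 0.017) and -1.29 (adjusted p 0.011). Unlike the calls for 15 to 40 days, these did not hold without each library. The high-oil call for 15 to 20 days ended without 15-day replicate 2 (log2 -1.03, adjusted p 0.082) or replicate 3 (log2 -1.18, adjusted p 0.057) or without 20-day replicate 1 (log2 -0.85, adjusted p 0.13). That for 20 to 25 days ended without 20-day replicate 2 (log2 -1.05, adjusted p 0.084) or replicate 3 (log2 -0.94, adjusted p 0.11) or without 25-day replicate 1 (log2 -1.13, adjusted p 0.066). The low-oil call for 15 to 20 days ended without 20-day replicate 3 (log2 -1.16, adjusted p 0.053), and that for 20 to 25 days without 20-day replicate 1 (log2 -1.06, adjusted p 0.078) or 25-day replicate 2 (log2 -1.13, adjusted p 0.056). Fitted on the compared groups alone, the adjusted p was 0.088 and 0.063 for the high-oil intervals and 0.065 for 20 to 25 days in the low-oil line.

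**Figure D2:**
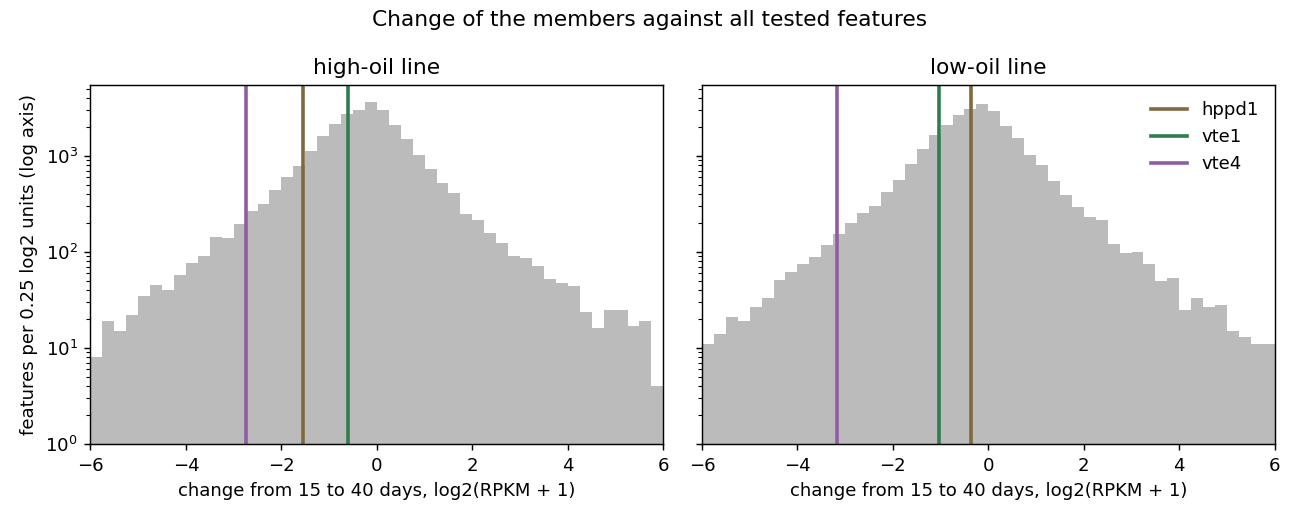
Number of features (log axis) by log2(RPKM + 1) change from 15 to 40 days in bins of 0.25 log2 units, shown between -6 and 6, with vertical lines at the changes of hppd1, vte1 and vte4. vte4 lies far in the left tail at -2.73 and -3.18, while vte1 and hppd1 lie nearer the centre and exchange places between the lines.

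The balance among the 4 genes differed between early and late embryos. At 15 days vte4 made up 19% ± 5.67 (SD, n = 3) of the summed RPKM of the 4 genes in high-oil embryos and 28.4% ± 4.1 in low-oil embryos. At 40 days it made up 5.71% ± 2.55 and 6.18% ± 5.33. The share of vte1 in high-oil embryos went from 24.6% ± 1.35 at 15 days to 36.2% ± 0.945 at 20 days, 23% ± 0.933 at 25 days and 43.3% ± 5.43 at 40 days. In the low-oil line it stayed between a mean of 24.7% at 40 days and 31.7% at 30 days. hppd1 held the largest share in every group, between 46% in low-oil embryos at 15 days and 70.8% in high-oil embryos at 25 days. These shares were not tested.

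**Figure D3:**
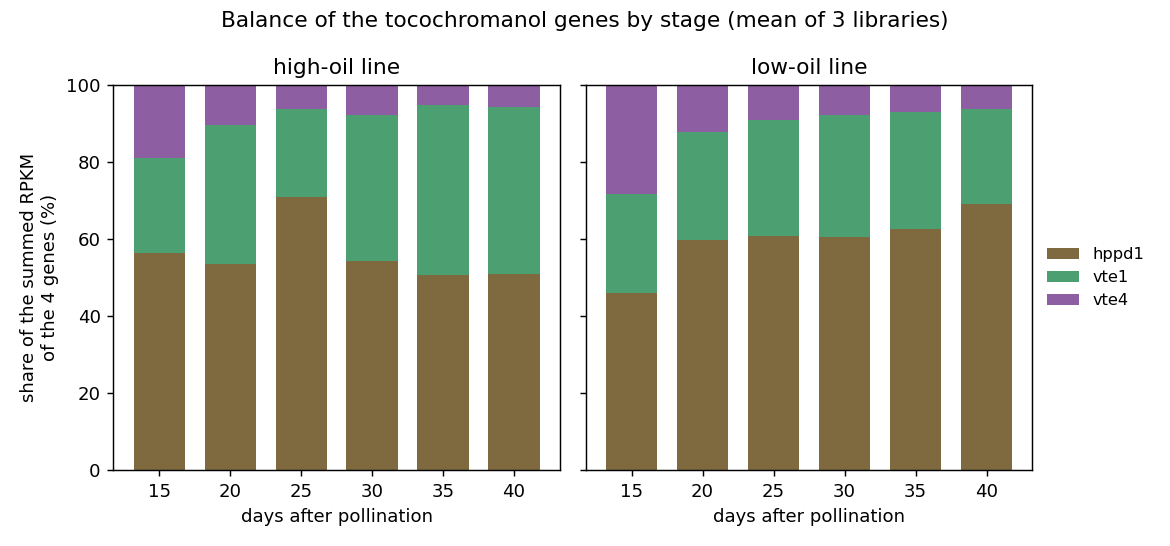
Share of hppd1, vte1 and vte4 in the summed RPKM of the 4 genes, in percent, as the mean of 3 libraries per line and day; hggt1 is too low to be seen. The vte4 share shrank from 19% and 28.4% at 15 days to 5.71% and 6.18% at 40 days.

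The ratio of vte1 to vte4 gives the same balance within libraries. It was 1.39 ± 0.476 (SD, n = 3) in high-oil embryos at 15 days and 0.915 ± 0.16 in low-oil embryos. At 25 days it was 3.68 ± 0.479 and 3.64 ± 1.26, and no library overlapped the 15-day range of its line. At 40 days the ratios were 9.68 ± 7.03 and 6.62 ± 4.75, with single libraries between 2.3 and 17.8.

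The lines were compared at equal age to ask how high-oil and low-oil embryos differ in these genes. Averaged over stages, vte4 and hppd1 were lower in high-oil embryos and passed the test, while vte1 did not. The count of 2 of 3 stands beside 31.9% of all features called in either direction and 21.2% called lower in high-oil embryos. The vte4 difference was -0.39 log2 units (SE 0.14, adjusted p 0.037), with a mean over 18 libraries of 6.56 RPKM in high-oil and 9.71 in low-oil embryos, and its mean was lower in high-oil embryos at all 6 stages. The hppd1 difference was -0.32 (SE 0.12, adjusted p 0.037), with 32.8 and 40.1 RPKM and a lower high-oil mean at 4 of the 6 stages. For vte1 the difference was 0.03 (adjusted p 0.77), with a 95% interval of -0.09 to 0.15.

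Neither call was firm. The median feature differed by -0.07 log2 units in the same direction, and with median-of-ratios scaling 0 of the 3 genes passed, at -0.32 for vte4 (adjusted p 0.077) and -0.23 for hppd1 (adjusted p 0.21). With a minimum of 1 log2 unit 0 passed as well, beside 5.83% of features. The vte4 call was lost on leaving out any single one of 14 libraries, and the hppd1 call any single one of 15.

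By single stage, the vte4 difference did not pass at any day. At 15 days all 3 low-oil libraries (30.5 to 36.4 RPKM) lay above all 3 high-oil libraries (14.5 to 26.4), a log2 difference of -0.68 (SE 0.35, adjusted p 0.34) beside 8.59% of features called. The share of all features whose lines were apart at 15 days was not counted. At the other 5 stages the lines overlapped. The log2 values were -0.44 at 20 days (where 11.3% of features were called), -0.33 at 25 days, -0.03 at 30 days (10.4%), -0.63 at 35 days and -0.23 at 40 days, and the last 2 of these stages include the libraries least like their group. As a ratio of mean RPKM, low-oil over high-oil, the difference was 1.59 at 15 days and 2.01 at 35 days, so the order of the stages depends on the scale.

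For hppd1 the libraries of the lines were apart at 35 and 40 days. How many of all features were apart in this way was not counted. The differences were 0.20 at 15 days, -0.39 at 20 days, 0.24 at 25 days and -0.18 at 30 days, with overlapping libraries each time. At 35 days the low-oil libraries (25.2 to 29.2 RPKM) all lay above the high-oil ones (12.6 to 16.5), at -0.81 log2 units (SE 0.29, adjusted p 0.056), beside 14.6% of features called. At 40 days they did so again, at -0.98 (SE 0.29, adjusted p 0.023), beside 10.6% of features called. The 40-day call was lost when low-oil replicate 1 was left out (log2 -0.46, adjusted p 0.28), which moved the value by over 1.5 times, and also without high-oil replicate 1 (log2 -0.88, adjusted p 0.071) and without high-oil replicate 3 (log2 -1.02, adjusted p 0.053). Fitted on the compared groups alone, the 35-day difference passed (adjusted p 0.028) and the 40-day difference did not (adjusted p 0.37). With median-of-ratios scaling the 40-day difference did not pass (adjusted p 0.057). Without the 3 libraries least like their group the 35-day value was -0.88 (adjusted p 0.011) and the 40-day value -0.36 (adjusted p 0.46).

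The vte1 differences between the lines were small at each stage, between -0.33 at 25 days (SE 0.14, adjusted p 0.12) and 0.27 at 40 days (SE 0.14, adjusted p 0.30), and none passed. The 25-day difference passed when low-oil replicate 3 was left out (log2 -0.46, adjusted p 0.047), beside 16.2% of features called in the fit with all libraries. At 30 days the high-oil libraries (14.7 to 15.1 RPKM) lay just above the low-oil libraries (12.3 to 13.6), at 0.21 log2 units (adjusted p 0.44). Here too the share of all features with the lines apart was not counted.

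**Figure D4:**
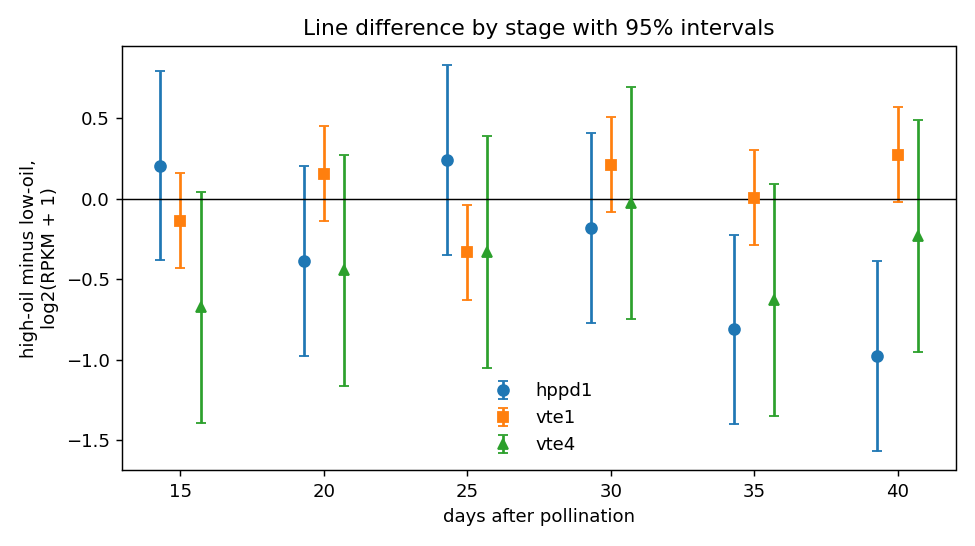
Line difference of hppd1, vte1 and vte4 (high-oil minus low-oil, log2(RPKM + 1) scale) against days after pollination, with 95% intervals from the limma fit. Of the 18 values, hppd1 at 40 days (-0.98) alone passed after adjustment, and it did not without low-oil replicate 1.

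Whether the lines differ in their course over time was tested as an interaction. For the change from 15 to 40 days, 0 of the 3 genes passed in limma, where 3.14% of features did. 1 had an unadjusted p below the threshold (hppd1), against 2 by limma-voom on the recovered reads, where 0 passed after adjustment. The values were -1.18 for hppd1 (SE 0.41, adjusted p 0.14), 0.41 for vte1 (SE 0.20, adjusted p 0.41) and 0.44 for vte4 (SE 0.50, adjusted p 0.81). Without low-oil 40-day replicate 1 the hppd1 value was -0.66 (adjusted p 0.38). A test over all stages gave adjusted p 0.15 for hppd1, 0.23 for vte1 and 0.89 for vte4, beside 6.68% of features called. The different calls for hppd1 in either line are thus not shown to be a difference between the lines.

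In the order of the 12 group means, vte4 stood highest in low-oil embryos at 15 days (32.8 RPKM), apart from the next group, high-oil embryos at 15 days. The other 10 neighbours in the order overlapped, down to high-oil embryos at 35 days with 1.53 ± 0.584 RPKM. hppd1 stood highest in high-oil embryos at 15 days, followed by low-oil embryos at 20 and at 15 days, and only the last 2 groups of the order, high-oil embryos at 40 and at 35 days, were apart. For vte1, the 4 groups of 15 and 20 days (26.2 to 30 RPKM) were apart from the 8 later ones (11.1 to 17.3 RPKM). In its order 3 of the 11 neighbours did not overlap. How often neighbours are apart among all features was not counted, so these counts are a description.

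Over the 12 group means of log2(RPKM + 1), vte4 and vte1 had a Pearson correlation of 0.87, vte4 and hppd1 of 0.84, and hppd1 and vte1 of 0.72. The Spearman values were 0.64, 0.80 and 0.55. With median-of-ratios scaling the Pearson values were 0.73, 0.74 and 0.49. Without low-oil 40-day replicate 1 hppd1 had Pearson values of 0.905 with vte4 and 0.769 with vte1. The points share libraries, depth and the common course with age, and these values are a description.

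The annotated genes whose course over the 12 group means was most like that of each gene were found among 23754 IDs. For vte4 they were Zm00001d046207 (Pearson r = 0.996), Zm00001d029105 (0.993) and Zm00001d047766 (0.992), and 3680 IDs had r above 0.9. Zm00001d029105 went from 30.9 and 35.7 RPKM at 15 days in the high-oil and low-oil lines to 8.37 and 9.59 at 40 days. For vte1 they were Zm00001d006204 (0.983), Zm00001d032337 (0.971) and Zm00001d008233 (0.971), with 485 IDs above 0.9. For hppd1 they were Zm00001d013827 (0.964), Zm00001d025921 (0.957) and Zm00001d008250 (0.953), with 170 IDs above 0.9. These counts moved with single libraries. The hppd1 count was 1455 without low-oil 40-day replicate 1, which kept 1 of the 3 IDs named, 72 and 31 without replicates 2 and 3 of that group, and 79 without low-oil 15-day replicate 3. The vte1 count was 261 without high-oil 40-day replicate 3, and the vte4 count lay between 3293 and 3813 over all 36 libraries left out in turn. Zm00001d046207 and Zm00001d008250 were low, with means of 0.713 and 1.37 RPKM over all libraries.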

How the data were processed

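The authors deposited a single table of RPKM values with a column for each of 36 libraries, and 0 columns were left unused. The submitters' processing notes name FastQC, TopHat2, Cufflinks and the build B73 RefGen_v4. How reads were counted, with which annotation and strand setting, is not given in the sources used here, so reads shared with near-identical copies may have been split. Library totals and feature lengths were derived from the steps of the RPKM values: 100% of the 51853 features above 0 resolved to whole reads within 0.001 reads. For each feature the shortest length that fitted was taken, so one with reads in few libraries may be longer and have more reads. The summed reads differed from the library totals by between -1266 and -392. limma 3.58.1 (R 4.3.3) was fitted to log2(RPKM + 1), pseudocount 1, with a mean for each of 12 groups and a variance trend, and p-values were adjusted over all 28048 features tested. Fold changes on this scale understate changes of low features. The test was checked on simulated reads, drawn independently for each library, so the check does not cover libraries that stand apart from their group. The symbols, genes and lists were chosen with earlier results of these data known. The genes most alike were the 3 annotated IDs with the highest correlation. Other pathway genes and cell type markers were to be taken by symbol from a reference table, and no ID matched, so they were not analysed here. Replicate libraries of a group differed by more than sampling noise in every pair. Groups are described as apart where their libraries did not overlap, and the share of all features apart in this way was not counted. Alternatives were scaling, pseudocount 0.1, no filter, a minimum of 5 RPKM, a minimum of 1 log2 unit, the compared groups alone, a replicate block, limma-voom on recovered reads, the 3 libraries least like their group left out, and each library left out in turn. Ratios of mean levels and counts of like IDs with each library left out were added after seeing the data.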

Additional observations from a re-analysis of the deposited data

How the results depend on the processing

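The falls of vte4 in both lines, of hppd1 in the high-oil line and of vte1 in the low-oil line from 15 to 40 days passed under every alternative fit run. For vte1 in the high-oil line the change was -0.22 with median-of-ratios scaling and -0.19 with quantile normalization, neither past the threshold, and -0.62 is under a minimum of 1 log2 unit. For hppd1 in the low-oil line it was 0.04 and 0.01 with these scalings, and -0.89 without the 3 libraries least like their group. The line difference of vte4 averaged over stages lost its call under a pseudocount of 0.1 (-0.47), quantile normalization (-0.33), limma-voom (-0.48), median-of-ratios scaling (-0.32), a minimum of 1 log2 unit (-0.39) or no filter (-0.39). That of hppd1 was not called with median-of-ratios scaling (-0.23), quantile normalization (-0.22), no filter (-0.32), without the 3 libraries (-0.23) or with the minimum (-0.32). Of the 3 genes, 0 were then called under both scalings, without the filter and with the minimum, and 1 with a pseudocount of 0.1, with limma-voom and without the 3 libraries. The cause was not tested. At 30 days the vte4 line difference of -0.03 became 0.04 and 0.06 with the scalings.

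With single libraries left out, the averaged difference lay between -0.45 and -0.32 for vte4 and between -0.37 and -0.23 for hppd1, and between 0 and 2 genes were called. The vte4 call ended at adjusted p 0.05 to 0.07 without any of 14 libraries. These were replicate 1 of the high-oil groups of 15, 20, 25, 30 and 40 days, high-oil 35-day replicate 2, replicate 1 of the low-oil groups of 15, 20 and 25 days, replicate 2 of those of 20, 35 and 40 days, and replicate 3 of those of 25 and 30 days. The hppd1 call ended at 0.051 to 0.066 without any of 15. These were high-oil 15-day replicates 2 and 3, replicate 1 of the high-oil groups of 20, 25, 30, 35 and 40 days, high-oil 30-day replicate 2, low-oil 15-day replicate 3, low-oil 20-day and 25-day replicates 1 and 2, and replicate 2 of the low-oil groups of 30 and 35 days. The hppd1 change from 15 to 40 days in the low-oil line lay between -0.89 and -0.09. Line differences that did not pass changed sign at 25 days for hppd1 (-0.01 to 0.45), at 30 days for vte4 (-0.15 to 0.05) and hppd1 (-0.39 to 0.04), at 35 days for vte1 (-0.08 to 0.11) and at 40 days for vte4 (-0.58 to 0.18).

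The replicate numbers share no stated origin. Same-numbered libraries of the lines at one stage deviated with correlations between -0.296 (35 days) and 0.394 (40 days, where the others were 0.308 and 0.0984). Set against the 3 libraries of the other line at its stage, 14 of 36 libraries correlated best with their own number. By stage this held for 0 of 6 libraries at 25 and at 35 days, 2 at 20, 3 at 15, 4 at 40 and 5 at 30 days. A replicate block left every call as it was, with -2.73 for vte4 in the high-oil line and 2 genes called for the averaged line difference. hggt1 entered the fit without a filter only, and its alternatives were not run. Mean levels moved by less than their SD under median-of-ratios scaling in 26 of 36 cases. Of the 4 genes hggt1 alone stood at or under the limit of 3 reads, counted at the shortest length that fits, and the cause was not tested.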
